A study of Mus musculus and Homo sapiens with 22 samples.

Results

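The binding of PROX1 was examined at 9 genes for histone deacetylases and subunits of corepressor complexes: Hdac1, Hdac2, Hdac3, Chd4, Mta1, Mbd3, Rbbp4, Ncor1 and Kdm1a. The 9 were taken from 21938 protein-coding genes of the mouse annotation and, under their human symbols, from 20033 of the human annotation. A peak was assigned to a gene when its summit, the base with the lowest p-value in the peak, lay in the gene body or within 20 kb of it. This rule gave 101 peaks, with 40 of 50159 from liver, 47 of 40531 from mouse embryonic fibroblasts (MEFs) and 14 of 14369 from Hep3B cells.

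The peaks came from CUT&RUN, in which an antibody directs a nuclease to cut and release the DNA around a bound protein. Of the 22 samples in 6 groups, 5 livers were profiled with a rabbit anti-Prox1 antibody, 3 MEF samples and 3 Hep3B samples with a rabbit anti-FLAG antibody, and the same numbers (5, 3 and 3) with rabbit IgG. For each antibody group 1 peak list over all its replicates was analysed, so no value below has a spread between replicates, no test was made, and the IgG libraries had no list analysed here. Livers came from untreated wild-type C57BL/6J mice of 2 to 3 months and carry endogenous PROX1. The MEFs were primary wild-type C57BL/6N cells from embryos at day 13.5, given rtTA and tetO-FLAG-mmProx1 by lentivirus and 2 µg/ml doxycycline for 2 days. Hep3B, a human hepatocellular carcinoma line, was transduced with pLIX-Puro-hsPROX1, selected with puromycin as a stable line and given 2 µg/ml doxycycline for 2 days. The IgG libraries of each kind came from the same cells and treatment as the antibody libraries. Both cell culture models therefore measure an overexpressed, induced factor in cells other than normal hepatocytes, and species, tissue, antibody and origin of PROX1 cannot be told apart as sources of a difference between lists.

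The labels called the liver samples hepatocytes, although whole livers were homogenised for nuclei. All 5 hepatocyte genes checked (Alb, Ttr, Apoa1, Hnf4a and Cps1) had a promoter peak in liver, 0 of 5 in MEFs and 1 of 5, CPS1, in Hep3B. Of 5 fibroblast genes (Col1a1, Col1a2, Pdgfra, Thy1 and Prrx1), 5 had one in MEFs, 1 in liver (Pdgfra) and 1 in Hep3B (COL1A1). A peak shows occupancy and says nothing of expression, so these counts describe the lists and do not identify the cells.

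PROX1 is a homeodomain transcription factor of hepatocytes and lymphatic endothelium that can act as a repressor. Repressors of this kind recruit protein complexes that remove acetyl groups from histones, remodel nucleosomes or demethylate histone H3. HDAC1 and HDAC2 are deacetylases shared by the NuRD, CoREST and SIN3 complexes, HDAC3 is the deacetylase of the NCoR complex, and in NuRD they work beside the remodelling ATPase CHD4, the MTA scaffolds, MBD3 and the histone chaperone RBBP4. NCOR1 is a scaffold of the NCoR complex and KDM1A, also called LSD1, is a lysine demethylase bound to CoREST.

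The DNA under 7 of the peaks is printed here to show the kinds of site described below: intronic and upstream peaks in liver, a start shared by liver and MEFs, and peaks at the starts of the genes in MEFs and Hep3B. They were chosen after their values were seen. Each is the reference sequence of the + strand around a summit, cut short where an annotated untranslated region began. Capitals mark letters that matched a searched motif on either strand. The motifs were AGGTCA, an element of nuclear receptors, then ATCGAT, an element of homeodomain factors of the liver, then the CCAAT box, the GC box written as GGGCGG, then TGCGCA as in NRF1 elements, then CCGGAAG as in ETS elements, and a 12-base PROX1 consensus with up to 2 mismatches. None of these words contains another. A match is a description of letters, not a binding site. The peak with the highest percentile of the 101 lay in an intron of Rbbp4 in liver, and its summit is base 101 of this stretch.
Rbbp4 intron, liver, mm10 chr4:129313978-129314178: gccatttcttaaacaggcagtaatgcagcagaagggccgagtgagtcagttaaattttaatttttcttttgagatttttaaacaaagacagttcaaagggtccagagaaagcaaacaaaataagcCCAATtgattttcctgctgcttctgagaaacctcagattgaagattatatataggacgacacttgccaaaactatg
The strongest liver peak inside Mta1 lay in an intron, and its stretch held an AGGTCA 25 bases before the summit and a PROX1 consensus match 86 bases after it.
Mta1 intron, liver, mm10 chr12:113106373-113106573: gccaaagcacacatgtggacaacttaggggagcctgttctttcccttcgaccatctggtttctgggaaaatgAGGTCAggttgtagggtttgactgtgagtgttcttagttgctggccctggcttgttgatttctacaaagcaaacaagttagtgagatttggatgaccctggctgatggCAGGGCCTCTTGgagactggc
A weak liver peak upstream of Rbbp4 held a PROX1 consensus match 40 bases after its summit, and it is shown beside the strong intronic peak, whose stretch holds no such match.
Rbbp4 upstream, liver, mm10 chr4:129337559-129337759: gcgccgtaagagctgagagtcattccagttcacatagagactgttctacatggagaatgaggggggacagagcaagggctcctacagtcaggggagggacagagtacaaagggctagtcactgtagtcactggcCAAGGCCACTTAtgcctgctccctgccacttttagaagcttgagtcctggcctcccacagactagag
The next stretch is shown because the liver and MEF lists placed a summit on the same base of it. That base lies 183 bp inside Ncor1 and 102 bp from a TSS of the neighbour Pigl.
Ncor1 promoter, liver and MEFs, mm10 chr11:62458258-62458454: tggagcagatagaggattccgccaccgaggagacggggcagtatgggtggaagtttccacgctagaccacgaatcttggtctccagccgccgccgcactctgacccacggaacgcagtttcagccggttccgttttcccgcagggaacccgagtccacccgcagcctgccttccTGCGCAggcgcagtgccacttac
The strongest promoter peak of the 9 genes in MEFs lay at Mbd3, and its stretch held a pair of CCAAT boxes and a GC box.
Mbd3 promoter, MEFs, mm10 chr10:80399551-80399734: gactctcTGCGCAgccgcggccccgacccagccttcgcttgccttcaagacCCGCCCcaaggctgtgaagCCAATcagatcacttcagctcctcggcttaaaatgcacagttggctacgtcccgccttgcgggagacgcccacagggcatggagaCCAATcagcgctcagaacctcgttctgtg
The Hdac1 promoter is given from both species, since it had a peak in MEFs and in Hep3B and each stretch held a CCAAT and a GGGCGG.
Hdac1 promoter, MEFs, mm10 chr4:129542714-129542895: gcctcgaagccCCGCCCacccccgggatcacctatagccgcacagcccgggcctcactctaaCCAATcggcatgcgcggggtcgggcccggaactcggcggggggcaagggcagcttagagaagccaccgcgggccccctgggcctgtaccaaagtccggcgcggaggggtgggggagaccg
HDAC1 promoter, Hep3B, hg38 chr1:32291841-32292041: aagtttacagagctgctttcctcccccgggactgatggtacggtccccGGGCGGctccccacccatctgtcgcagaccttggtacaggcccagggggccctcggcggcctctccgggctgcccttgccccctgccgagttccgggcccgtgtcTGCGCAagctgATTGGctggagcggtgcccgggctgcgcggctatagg

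To see whether PROX1 lay at the starts of these genes, promoter peaks were counted, defined by a summit within 1 kb of a transcription start site (TSS) of a protein-coding transcript. All 9 genes had a promoter peak in MEFs, 7 had one in Hep3B and 1 had one in liver. Over all protein-coding genes the shares were 55.1% for MEFs, 43.6% for Hep3B and 26.5% for liver. The MEF and Hep3B counts thus stood above the background and the liver count below it, and with 9 genes and no replicate lists none of these differences was tested. Ncor1 alone had a promoter peak in all 3 lists, 8 genes had one in MEFs and not in liver, and 0 had the reverse. A promoter peak in all 3 lists was also found at 3449 other genes. The shares of all genes in these combined classes were not counted. The MEF list covered more of all genes than the liver list, so these counts do not set the 9 apart. In Hep3B the genes without one were CHD4 and MTA1.

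The lists were not equally long or equally strict, which touches these counts. The lowest peak area, the sum of significance over a peak's length, was 500 in the liver list and 200 in the MEF and Hep3B lists. The weakest q-value at a summit differed as well. As −log10 q, no liver summit fell below 4.03, whereas MEF summits went down to 1.16 and Hep3B summits to 1.22. With an area of at least 500 in each list, 8 of the 9 genes kept a promoter peak in MEFs (all genes 45%) and 4 in Hep3B (all genes 26.7%). This area limit did not make the lists equally strict by q-value, since the Hdac3 promoter peak in MEFs passed it with 2.99. Among promoter peaks of the 9 genes in MEFs, only those of Mbd3 (4.67), Hdac1 (4.26) and Rbbp4 (4.09) reached the liver minimum. The highest in Hep3B, at RBBP4, had 3.24. The share of all genes at that q-value was not counted. With the 14369 strongest peaks of each list (14383 in MEFs, with ties), 7 genes had one in MEFs (all genes 33.8%) and 0 in liver (all genes 4.97%).

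**Figure D1:**
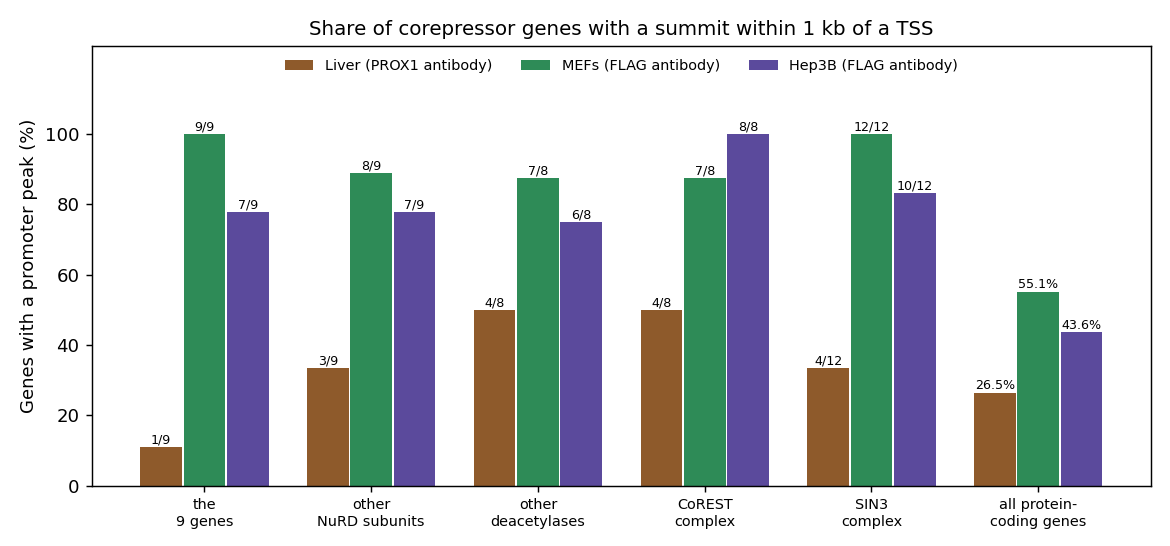
Percentage of genes (y axis) whose TSS had a PROX1 summit at most 1 kb away, by list, for the 9 genes, 4 groups of related corepressor genes and all protein-coding genes (x axis). The fraction above each bar gives the number of genes with such a peak of those in the group, and the 9 genes read 1 for liver, 9 for MEFs and 7 for Hep3B.

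The strength of a peak was compared within its own list as a percentile, the share of that list's peaks with a lower −log10 p at the summit. In MEFs the promoter peaks of the 9 genes, taking the strongest for each gene, ranged from the 32.7 to the 99.4 percentile with a median of 77.4, against 67.4 for all promoter peaks of that list. In Hep3B the 7 ranged from the 7.39 to the 75.3 percentile with a median of 48.0, against 59.3 for all promoter peaks. In liver the strongest of 3 promoter peaks of Ncor1, the single gene there, stood at the 62.4 percentile, and the others at 6.96 and 4.52. The median for all promoter peaks of that list was 32.1. The medians for all promoter peaks count every peak, not the strongest of each gene, so the measures differ. The strongest liver peak and the MEF median stood above them and the Hep3B median below. The other liver peaks of Ncor1 lay below 32.1. When peaks were ranked by area, the Hep3B median was 78.1, the MEF median 86.4 and the liver value 61.8. No area median for all promoter peaks was taken, so these values cannot be set against a background.

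Of the 3 deacetylases among the 9 genes, Hdac1 had the strongest promoter peak by summit −log10 p in MEFs and in Hep3B. In MEFs its summit lay 82 bp upstream of the single annotated TSS with a −log10 p of 8.67, the 94.4 percentile. In Hep3B the HDAC1 summit lay 142 bp upstream with 6.94, the 64.1 percentile. No liver peak lay in the Hdac1 window, and the nearest liver summit was 81375 bp from its TSS.

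Hdac2, the close paralogue of Hdac1, gave a like pattern at lower ranks. Its MEF promoter peak lay 27 bp upstream of the TSS with a −log10 p of 7.003, the 73.8 percentile. Its Hep3B peak lay 267 bp from the nearest of 12 human TSSs with 6.38, the 48.0 percentile. The nearest liver summit was 273406 bp away, the longest such distance among the 9 genes.

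Hdac3, the catalytic subunit of NCoR, had weaker promoter peaks than Hdac1 and Hdac2 in both cultured models by summit −log10 p. Ranked by area, the MEF order was reversed, with Hdac3 at the 89.4, Hdac2 at the 86.4 and Hdac1 at the 79.3 percentile. By area in Hep3B, HDAC2 stood at the 79.5, HDAC1 at the 42.2 and HDAC3 at the 8.70 percentile. The Hdac3 peak in MEFs, 51 bp inside the gene, had a −log10 p of 6.20 and the 55.7 percentile. The HDAC3 peak in Hep3B, 97 bp upstream, had 5.57 and the 22.3 percentile. Both summits were also within 1 kb of a TSS of the neighbour Rell2, so the peak could not be assigned to 1 gene. In liver the nearest summit lay in an Hdac3 intron 1363 bp from the TSS, at the 51.8 percentile. With a promoter window of 2000 bp this summit counted, which made 2 of the 9 genes in liver against 30.3% of all genes.

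Of the 9 genes, Mbd3 had the strongest promoter peak in MEFs. Its summit, 84 bp upstream of the gene in the CCAAT-bearing stretch above, had a −log10 p of 10.4 and ranked 228 of 40531, the 99.4 percentile, over a width of 1810 bp. MBD3 in Hep3B had a promoter summit 75 bp from a TSS with 7.35, the 74.0 percentile. Liver had no peak in the Mbd3 window, and the nearest summit was 24476 bp away.

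Rbbp4 came next after Mbd3 and Hdac1 among the 9 genes in MEFs, and RBBP4 had the highest promoter peak of the 7 in Hep3B. The MEF summit, 71 bp inside the gene, had a −log10 p of 8.27 and the 91.4 percentile, and a weaker peak stood 631 bp upstream at the 65.7 percentile. The Hep3B summit, 73 bp upstream, had 7.42 and the 75.3 percentile. As at Hdac3, the promoter is shared with a neighbour, Zbtb8os, whose TSS also lay within 1 kb of these 3 summits.

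Chd4 and Mta1 had promoter peaks in MEFs and none in the other 2 lists. The Chd4 summit lay 31 bp inside the gene with a −log10 p of 7.58, the 83.7 percentile. The Mta1 summit lay 156 bp upstream with 5.35, the 32.7 percentile, which was the lowest of the 9 in MEFs. In Hep3B the CHD4 summit nearest to a TSS was 5458 bp from it, in an intron and 636 bp inside the outermost end of the gene as annotated, at the 48.6 percentile. The nearest MTA1 summit in Hep3B was 27623 bp from a TSS, at the promoter of CRIP1.

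Ncor1 had a promoter peak in every list. In MEFs its stronger promoter summit lay 183 bp inside the gene with a −log10 p of 7.19, the 77.2 percentile, and a weaker one stood at the 28.0 percentile. The stronger summit was also 102 bp from a TSS of the neighbour Pigl, so that peak could not be assigned to 1 gene. In Hep3B an NCOR1 summit 127 bp from a TSS had 6.02, the 36.0 percentile, and a summit 1020 bp inside the gene, next to a TSS of PIGL, had 7.50, the 76.8 percentile. In liver 3 promoter summits had −log10 p of 13.4, 8.56 and 8.21, the 62.4, 6.96 and 4.52 percentiles. The last lay on the same base as the stronger MEF summit and was likewise within 1 kb of the Pigl TSS. Ncor1 has 14 annotated TSSs in mouse. With the outermost start of each gene alone, the counts were 1 in liver (all genes 23.5%), 9 in MEFs (51.4%) and 6 in Hep3B (39.2%). In Hep3B NCOR1 and HDAC2 then had none and CHD4 had one. By that rule Ncor1 had a promoter peak in liver and MEFs alone, and the liver one was that at the 4.52 percentile.

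Among the 3449 other genes with a promoter peak in all 3 lists, the 3 whose percentiles were nearest to those of Ncor1 were Rab43, Sf3a3 and Kank2. Their summed absolute differences over the 3 lists were 2.92, 6.84 and 8.66 percentile points. For Rab43 the percentiles were 61.9 in liver, 77.4 in MEFs and 33.9 in Hep3B.

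By summit −log10 p, Kdm1a had the widest gap in rank between the cultured models among the 7 genes with a promoter peak in both. By area the gap was wider at Hdac3 (89.4 in MEFs and 8.70 in Hep3B) than at Kdm1a (86.0 and 15.8). The Kdm1a promoter summit in MEFs, 133 bp upstream, had a −log10 p of 7.21 and the 77.4 percentile. Its Hep3B summit, 21 bp upstream and also within 1 kb of a TSS of TEX46, had 4.99 and the 7.39 percentile, the lowest of the 7 promoters there. In liver the single Kdm1a peak lay in an intron 10021 bp from the TSS.

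**Figure D2:**
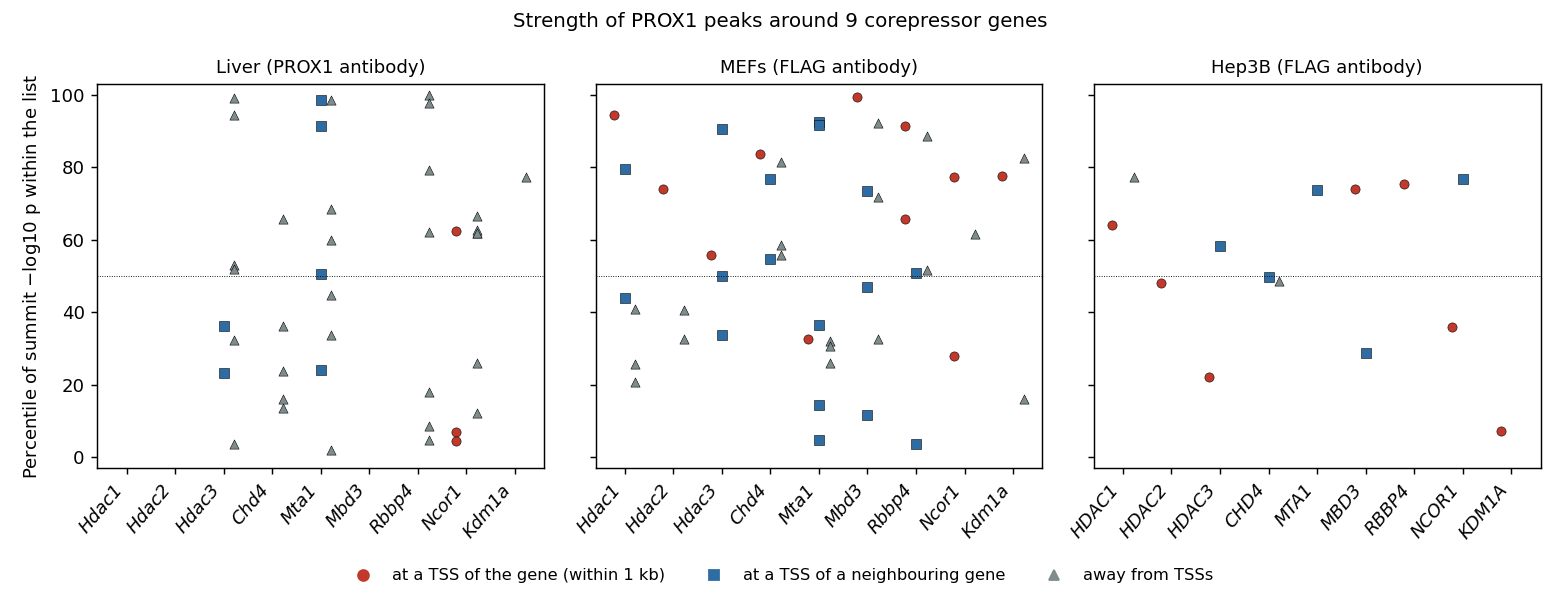
Percentile of summit −log10 p within each list (y axis) for every peak in the windows of the 9 genes (x axis), in liver, MEFs and Hep3B. Circles mark peaks at a TSS of the gene itself, squares those at a TSS of a neighbouring gene and triangles those away from TSSs; the dotted line is the list median, and the 3 liver circles all belong to Ncor1.

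To find where else PROX1 lay around the 9 genes, all peaks in their windows were placed. In liver 6 of 9 genes had at least 1 peak in the window (all genes 57.5%), in MEFs 9 of 9 (75.6%) and in Hep3B 9 of 9 (62.6%). Windows of the 9 genes held 54.3 peaks per Mb in liver against 33.1 over all genes, 63.8 against 30.2 in MEFs and 15.6 against 11.3 in Hep3B. Pooled over the 9 genes, the windows were thus denser in peaks than those of all genes in each list. This did not hold for every gene: 4 of the 9 windows were below the density of all genes in liver, where Hdac1, Hdac2 and Mbd3 had 0 peaks and Kdm1a had 10.8 per Mb. In Hep3B 4 were below it (HDAC2, NCOR1, KDM1A and MTA1) and in MEFs 1, that of Ncor1. In the gene bodies alone the MEF density fell to 23.9 and the Hep3B density to 9.28 peaks per Mb, against 20.8 and 6.09 over all genes, while the liver density was 53.2 against 29.2.

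The liver peaks lay mostly away from the starts of the 9 genes. Of 40 liver peaks, 3 were at a promoter of the gene itself, 6 at a promoter of a neighbour, 17 in the gene body away from promoters and 14 in the flanks away from promoters. The same 4 classes held 11, 17, 4 and 15 of the 47 MEF peaks, and Hep3B had 7, 5, 1 and 1. The share in the own body away from promoters was 42.5% for liver (all gene and peak pairs 41.4%), 8.51% for MEFs (24.3%) and 7.14% for Hep3B (11.9%). The share at the own promoter was 7.5% for liver (12.2%), 23.4% for MEFs (24.3%) and 50.0% for Hep3B (39.6%). The large share in gene bodies away from promoters in liver was therefore near that of liver peaks around any gene. In MEFs the same share of the 9 genes was below the background.

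**Figure D3:**
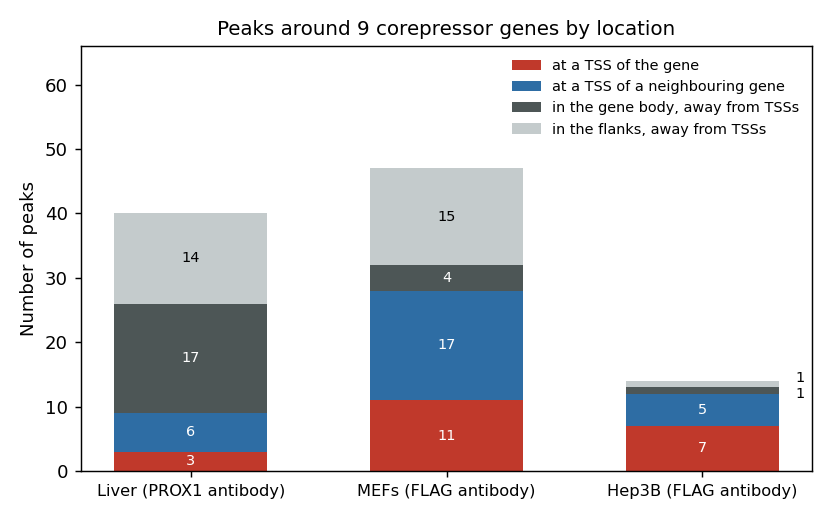
Number of peaks (y axis) in the windows of the 9 genes in liver, MEFs and Hep3B (x axis), stacked by where the summit lay. Liver holds 17 peaks in gene bodies away from TSSs and 3 at TSSs of the genes, MEFs 4 and 11, and Hep3B 1 and 7.

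The highest-ranked peak of all lay in the body of Rbbp4 in liver. The peak of the printed intronic stretch, 21005 bp from the TSS and 2372 bp wide, had a −log10 p of 29.2 and ranked 20 of 50159, the 99.96 percentile. Another intronic peak, 13910 bp from the TSS, had 21.8 and ranked 1170, the 97.7 percentile. The other 4 peaks in the Rbbp4 body stood at the 79.2, 62.2, 17.9 and 4.87 percentiles, the first of them over the end of the neighbour Sync. Repeat-masked bases made up 20.6% of the 301 bp around the strongest summit and 72.1% around the other. None of the 7 liver peaks in the Rbbp4 window overlapped a MEF peak, although MEFs had an intronic Rbbp4 peak of their own 10185 bp from the TSS at the 88.4 percentile.

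Mta1 had 10 liver peaks, the most of the 9 genes, and 5 of them lay in its introns. The strongest of these, 8150 bp from the TSS and 1756 bp wide, had a −log10 p of 22.8 and ranked 728, the 98.5 percentile. The other 4 intronic peaks stood at the 68.4, 59.97, 44.7 and 2.04 percentiles. Downstream of Mta1 the liver peaks belonged to the neighbours Crip2, where a peak 2745 bp wide ranked 721, Crip1 and Tedc1. The same neighbours held 7 of the 9 MEF peaks of the Mta1 window, so most MEF peaks counted for Mta1 were not inside it.

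At Hdac3, 7 of the 8 liver peaks lay in or at the start of the neighbour Diaph1 rather than in Hdac3. The strongest of the 7 ranked 432 of 50159, the 99.1 percentile, 26315 bp from the Hdac3 TSS, and another stood at the 94.4 percentile. The assignment of strong liver peaks to Hdac3 thus rested on the 20 kb flank.

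Chd4 had 5 liver peaks, all upstream between 14006 and 6803 bp from the TSS. The farthest lay in a coding exon of the neighbour Lpar5, and for it and the next peak inward the nearest TSS was that of Lpar5. The 5 peaks stood at the 13.7, 65.7, 23.7, 36.3 and 16.0 percentiles, listed from the farthest inward, so all but 1 were below the list median. Of the 5, 4 overlapped MEF peaks that stood at the 58.5, 81.4 and 55.9 percentiles.

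Ncor1 had 9 liver peaks over a gene of 142 kb. Outside its promoters, 4 intronic peaks stood at the 66.5, 61.7, 26.1 and 12.4 percentiles, and 2 upstream peaks in an intron of Pigl at the 62.6 and 61.9 percentiles. Its liver peaks were thus of middling or low rank throughout. The single Kdm1a peak, 267 bp wide, had a −log10 p of 15.4 and ranked 11393, the 77.3 percentile.

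Over all 9 genes, 2 of 40 liver peaks were in the top 1% of their list, 5 in the top 5% and 7 in the top 10%. In MEFs 1 of 47 was in the top 1%, 1 in the top 5% and 7 in the top 10%, and in Hep3B 0 of 14 were in the top 10%. Over all peaks the liver median was the 51.2 percentile, the MEF median 54.8 and the Hep3B median 53.9, close to the list median of 50. Of the 7 liver peaks in the top 10%, 3 lay in introns of Rbbp4 and Mta1 and 4 in the neighbours Diaph1, Crip2 and Crip1. Of the 7 in MEFs, 3 lay at the starts of Mbd3, Hdac1 and Rbbp4, 3 at the neighbours Diaph1, Crip2 and Tedc1, and 1 between genes in the Mbd3 window. Part of the high ranks in both lists thus lay outside the 9 genes themselves. Over all gene and peak pairs of any rank, 41.4% in liver and 24.3% in MEFs lay in the own body away from promoters. A further 12.2% and 24.3% lay at the own promoter. The shares among top 10% peaks of all genes were not counted, so the placement is not particular to the 9.

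**Figure D4:**
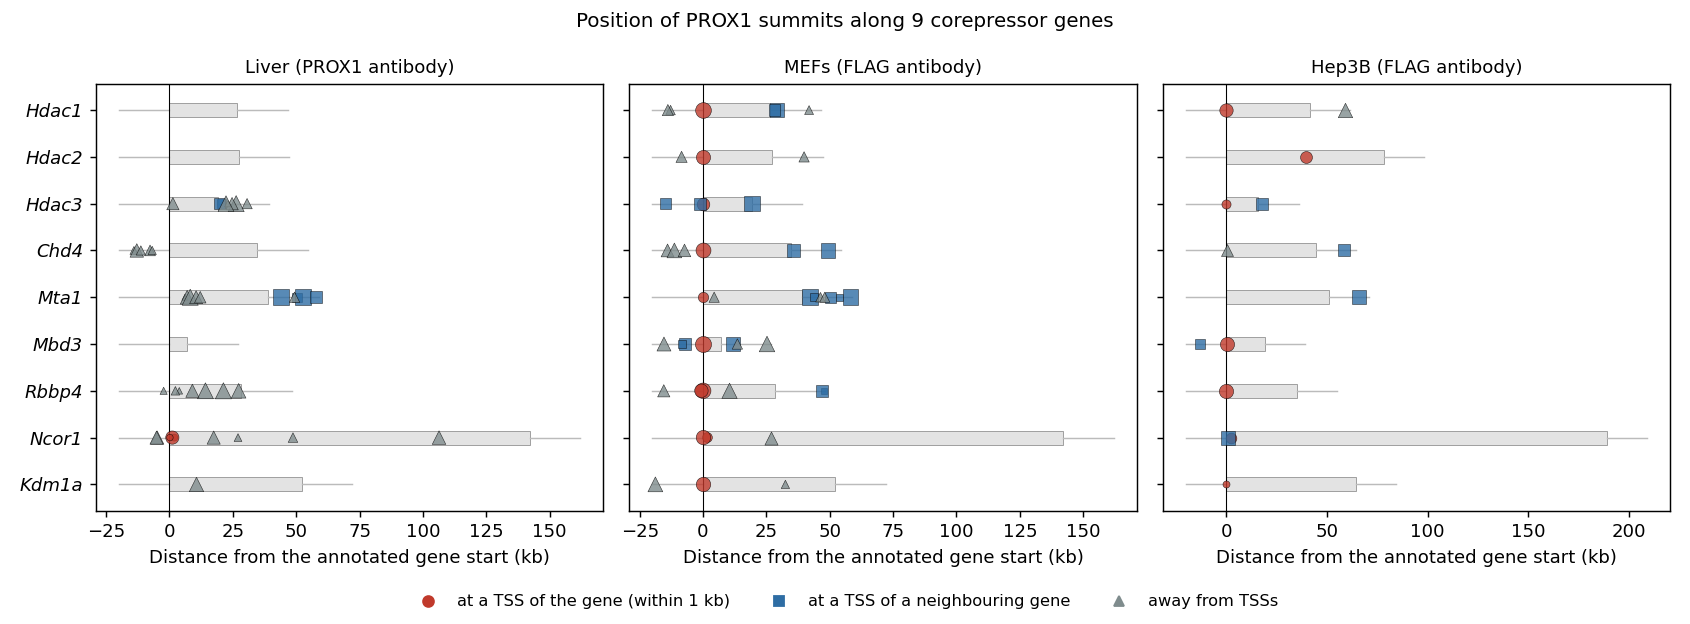
Summits of all 101 peaks by distance from the outermost annotated start of each gene (x axis, kb) in liver, MEFs and Hep3B; grey boxes are gene bodies and grey lines the 20 kb flanks, and larger symbols mark higher percentiles. Red circles, at a TSS of the gene, stand near 0 in MEFs for all 9 genes and in liver for Ncor1; HDAC2 in Hep3B stands 39884 bp inside because its annotated gene begins far upstream of the TSS that the summit lay at.

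Sharing of sites between liver and MEFs was examined next, since both lists use the same genome. Of the 40 liver peaks 12 (30%) overlapped a MEF peak by at least 1 bp, against 18.9% of all liver peaks, and of the 47 MEF peaks 11 (23.4%) overlapped a liver peak, against 21.4%. At promoters of any gene, 7 of 9 liver peaks were shared (all 67.6%) and 7 of 28 MEF peaks (all 35.7%). Away from promoters the shares were 16.1% of 31 liver peaks (all 10.7%) and 21.1% of 19 MEF peaks (all 14.7%). The shared liver peaks fell at Chd4 (4), Ncor1 (4), Mta1 (3) and Hdac3 (1), and none fell at Rbbp4 or Kdm1a.

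The most exact match was at the start shared by Ncor1 and Pigl. Both lists had a summit there on the base chr11 62458358 of mm10, shown in the sequences above. The peak there was weak in liver, at the 4.52 percentile, and stood at the 77.2 percentile in MEFs. Upstream of Chd4 the summits were 8 bp apart at the liver peak 11283 bp from the TSS. They were 23 bp apart at the one 14006 bp from it, in a coding exon of Lpar5. With a summit distance of at most 100 bp in place of an overlap, 4 peaks of each list were shared (6.56% of all liver peaks and 8.12% of all MEF peaks), so most overlaps joined summits that lay farther apart.

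The promoter peaks lay in DNA rich in G and C. The median GC content of the 301 bp around the summits at promoters of the 9 genes (3 peaks in liver, 11 in MEFs and 7 in Hep3B) was 59.8% for liver, 65.8% for MEFs and 69.8% for Hep3B, against 54.5%, 63.1% and 66.1% for all promoter peaks of each list. Their ratio of observed to expected CpG had medians of 0.818, 0.863 and 0.920, against 0.547, 0.765 and 0.836. Away from promoters the medians of GC were 44.9% in liver and 52.2% in MEFs, against 46.2% and 48.2%. By these medians the promoter summits of the 9 genes were somewhat richer in CpG than promoter summits in general. In liver all 3 summits belonged to Ncor1, with ratios of 0.914, 0.818 and 0.440, the last below the 0.547 of that list.

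The PROX1 consensus with up to 2 mismatches occurred in 5 of 40 liver peaks (all peaks 14.1%). In MEFs 5 of 47 held it (15.3%), and 1 of 14 did in Hep3B (13.3%). Within the 301 bp around the summit it occurred in 3 liver peaks (all 6.19%), 0 MEF peaks (5%) and 0 Hep3B peaks (5.02%). With 1 mismatch it was in 0 liver peaks (0.869%), 1 MEF peak (0.982%) and 0 Hep3B peaks (1.04%), and with 3 mismatches in 23 (69%), 38 (73.8%) and 10 (70.9%). At 2 mismatches over the whole peak the share was thus below that of all peaks in each list, by a margin of few peaks. The 3 liver matches were in the intronic Mta1 and upstream Rbbp4 stretches printed above and in the Hdac3 intron. None of the 11 MEF or 7 Hep3B peaks at the promoters of the 9 genes held the consensus at this setting. When a consensus match was required of a promoter peak, 0 of the 9 genes were left in each list, against 5.78%, 13.6% and 7.13% of all genes in liver, MEFs and Hep3B.

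Other short motifs were counted in the same 301 bp. GGGCGG occurred in 22 of 47 MEF windows (all MEF peaks 28.3%), 12 of 14 Hep3B windows (53.6%) and 5 of 40 liver windows (11%). Among peaks at any promoter the counts were 19 of 28 in MEFs (all promoter peaks 63.9%), 10 of 12 in Hep3B (75%) and 3 of 9 in liver (41.2%), so the GC box was about as frequent as at other promoters. CCAAT occurred in 20 of 40 liver windows (36.6%), 21 of 47 MEF windows (36.6%) and 5 of 14 Hep3B windows (37.5%).

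AGGTCA was rarer at the 9 genes than in the liver list as a whole, with 7 of 40 windows against 32%. In MEFs it occurred in 9 of 47 (16.4%) and in Hep3B in 1 of 14 (14.1%). TGCGCA occurred in 6 of 47 MEF windows (6.11%), 4 of 14 Hep3B windows (9.74%) and 1 of 40 liver windows (2.86%), and CCGGAAG in 3 (6.22%), 3 (12.6%) and 2 (2.6%). ATCGAT, which 2.49% of liver windows, 1% of MEF windows and 1.02% of Hep3B windows held, was found in 0 windows of the 9 genes.

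To set the 9 genes beside related genes, 41 others were examined with the same promoter rule. They were further subunits of the NuRD, NCoR, CoREST and SIN3 complexes and 8 other classical deacetylases, taken by enzyme family. In MEFs 38 of 41 had a promoter peak, in Hep3B 33 and in liver 17, against the shares of all genes given above. Of these, 16 had one in all 3 lists, 21 had one in MEFs and not in liver, and 0 had the reverse. The shares of all genes in these combined classes were not counted. Over all genes, 12098 had a promoter peak in MEFs and 5824 in liver, so the split does not set the related genes apart. The wide occupancy of starts in MEFs was thus not limited to the 9. The liver share of 41.5% among the related genes stood above the 26.5% of all genes and the 1 of 9 here below it. The liver excess of the related genes was not seen with equal numbers of top peaks, where 2 of 41 (4.88%) had one, against 4.97% of all genes.

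The other NuRD subunits counted 3 of 9 in liver, 8 of 9 in MEFs and 7 of 9 in Hep3B. Gatad2a, a bridging subunit, had the highest rank of them in MEFs and Hep3B, at the 99.98 and 97.6 percentiles, and stood at the 66.6 percentile in liver. Chd5 had no promoter peak in any list, and Cdk2ap1 had one in MEFs alone. In liver the 3 subunits were Chd3, Gatad2a and Gatad2b, and Chd3, the paralogue of Chd4, stood at the 93.9 percentile there and at the 2.71 percentile in MEFs.

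The other classical deacetylases counted 4 of 8 in liver, 7 of 8 in MEFs and 6 of 8 in Hep3B. Hdac4, Hdac5, Hdac6 and Hdac11 had a promoter peak in all 3 lists, and of these Hdac5 had the most even ranks, at the 34.5, 73.2 and 89.7 percentiles in liver, MEFs and Hep3B. Hdac7 had one in MEFs alone and Hdac8 in none. Some deacetylases of other classes therefore had liver promoter peaks where Hdac1, Hdac2 and Hdac3 had none, against 26.5% of all genes. These liver peaks were weak, with Hdac4 at the 11.5, Hdac11 at the 14.0 and Hdac6 at the 24.6 percentile. The median for all liver promoter peaks was 32.1. With so few genes the difference was not tested.

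Among the partners of Ncor1, Tbl1xr1, which helps exchange corepressors, had a promoter peak in all 3 lists, at the 57.7 percentile in liver, 71.8 in MEFs and 70.2 in Hep3B. Tbl1x had one in MEFs alone.

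In CoREST, the complex of Kdm1a, 4 of 8 partners had a promoter peak in liver, 7 in MEFs and 8 in Hep3B. With the strongest taken for each gene, those peaks had a median percentile of 5.99 in liver and 85.1 in MEFs. The medians for all promoter peaks of those lists, with every peak counted, were 32.1 and 67.4. Hmg20b, the highest of the 4 in liver, stood at the 22.5 percentile in liver, 98.3 in MEFs and 90.1 in Hep3B, while ZMYM3 had a peak in Hep3B alone. In the SIN3 complex 4 of 12 had one in liver, 12 in MEFs and 10 in Hep3B, where SIN3B and SAP30 had none. Sin3a, the scaffold, was high in every list, at the 88.5 percentile in liver, 97.4 in MEFs and 99.3 in Hep3B.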

How the data were processed

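CUT&RUN libraries had been aligned to mm10 or hg38 in the nf-core/cutandrun pipeline. The submitters' processing notes name Trim Galore 0.6.6, Bowtie2 2.4.2, SAMtools 1.10, Picard 2.23.9, bedtools 2.30.0 and Genrich 0.6.1. The authors called peaks with Genrich over the replicates of each group, without PCR duplicates or mitochondrial reads, at a lenient q-value limit. They describe the sites as set against IgG, but the command they print names no control, and how the IgG libraries entered the calling is not given in the sources used here. The deposited lists give a score capped by the caller, the area under the curve of significance as a signal, the −log10 p and −log10 q at the summit, and the offset of the summit. The score was not used further. None of these values was scaled between lists, and the lists give no read totals, so depth is unknown and no interval could be given. Peaks were ranked by −log10 p within their own list.

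From these lists, peaks were assigned with Python 3.11.15, numpy 2.4.6 and pandas 2.3.3 to protein-coding genes of GENCODE M21 (mouse) or 44 (human) by summit, in the gene body or within 20 kb. Promoters were taken as 1000 bp around each TSS. Motifs were searched on both strands in 301 bp around the summit, and the PROX1 consensus, a 12-base palindrome written from general knowledge and not the authors' matrix, also in the whole peak with 20 bp on each side. Sequences came from the mm10 and hg38 references. Counting steps were checked on simulated lists. The named genes were the 9 and genes with a TSS within 1000 bp of or nearest to one of their peaks. In each related complex or family they were genes in no list, the gene with the highest lowest percentile over 3 lists, and genes in counts of 5 or fewer. The members, gene lists and motifs were chosen with earlier results of these data known. Alternatives changed the flank, promoter window, TSS, q limit, area, peak number, overlap, ranking and mismatches. The values of 1 related gene and the counts of its complex are not reported here.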

Additional observations from a re-analysis of the deposited data

How the results depend on the processing

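Of 136 alternative values, 97 stayed within 1.5 times the value reported and 39 did not. Requiring the PROX1 consensus left 5 peaks in the windows in liver, 5 in MEFs and 1 in Hep3B, 4 genes with a window peak in MEFs and 1 in Hep3B, 0 of the 9 genes with a promoter peak in each list, and 2, 10 and 3 of the 41 related genes. With 1 mismatch the consensus was in 0, 1 and 0 peaks in liver, MEFs and Hep3B, and with 3 mismatches in 23, 38 and 10. With an area of at least 500, windows held 24 peaks in MEFs and 7 in Hep3B, and in Hep3B 4 of the 9 and 21 related genes had a promoter peak. With equal numbers of top peaks (14383 in MEFs, where ties were kept), windows held 9 peaks in liver and 19 in MEFs, 0 of the 9 had a promoter peak in liver, and 2 and 22 related genes had one in liver and MEFs (4.88% and 53.7%, against 4.97% and 33.8% of all genes). Flanks of 10 kb gave 30 peaks in MEFs, and flanks of 50 kb gave 68 in liver and 74 in MEFs. Gene bodies alone held 20, 9 and 5 peaks, with 23.9 per Mb in MEFs and 9.28 in Hep3B, and 4 genes in Hep3B. A 2000 bp promoter window gave 2 genes in liver, ranking by area gave a Hep3B median percentile of 78.1, and summits within 100 bp gave 4 shared peaks in each list. The causes of these differences were not tested.

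Each list combines all replicates of a group, so no fit without a replicate was made, and depth per sample is unknown. No paired analysis was possible because the lists pool the samples of a group and no result came from a test. Absence of a peak means that none passed the caller's limit in that list.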
